A study of Mus musculus with 47 samples.

Results

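The mTOR pathway components described here are 10 genes, namely Mtor, Rptor, Rictor, Mlst8, Akt1, Akt2, Tsc1, Tsc2, Rheb and Rps6kb1. They were found through the RefSeq names of the 3′ UTR intervals in the count tables, which map to these symbols for 25 mRNA transcripts, and all 10 were present among 18981 genes with an mRNA 3′ UTR. The 47 libraries are SLAM-seq libraries of wild-type P19 cells, a mouse embryonal carcinoma line. D0 cells were undifferentiated and grown in serum, and D6 cells had spent 6 days in NDiff® 227 medium with 500 nM retinoic acid, which drives them toward neurons. SLAM-seq follows RNA by its 4-thiouridine (4sU): cells incorporate the nucleoside into transcripts as they are made, and after alkylation an incorporated 4sU is sequenced as C, counted here as a T>C conversion. D0 cells received 20 µM 4sU and D6 cells 500 µM, so that state and dose cannot be told apart in any value of label. The same holds for the reads of every library that received 4sU, so that only the reads without 4sU compare the states without a difference in dose. In the catabolic assay, called the chase here, cells were labeled for 15 h and the loss of label was then followed for up to 9 h in medium with UTP. In the anabolic assay, called uptake here, 4sU was added at 0 h and its incorporation was followed for up to 9 h. There were 3 libraries in every group except the third time point of the chase at D6, which had 2. The labels give the time points as 0, 1, 3 and 9 and the design text as 0, 3, 6 and 9 h, so that the comparisons rest on 0 and 9 h, on which both sources are the same. The study calls its replicates biological, whereas the labels name no culture for a library, and the p-values below measure the spread between libraries.

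mTOR is a serine/threonine kinase that couples nutrients and growth factors to protein synthesis, and it works in 2 complexes. Raptor (Rptor) defines mTORC1 and Rictor defines mTORC2, and mLST8 (Mlst8) is a subunit of both. Growth factors act through PI3K on the AKT kinases (Akt1, Akt2), and AKT inhibits the TSC1-TSC2 complex (Tsc1, Tsc2), which keeps the small GTPase RHEB (Rheb) from activating mTORC1. S6 kinase 1 (Rps6kb1) is a direct target of mTORC1, whereas mTORC2 phosphorylates AKT. These are functions of the proteins, and only the RNAs were measured here.

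Reads on mRNA 3′ UTRs numbered 3171233 to 10791594 per library at D0 (median 6600127) and 1350628 to 7224466 at D6 (median 3402604). In 6 libraries, all of D6, fewer than 9000 genes had a read (6925 to 8813, against 9379 to 12210 in the other libraries). None of these 6 belongs to the groups without 4sU or at 0 h of the chase. Among the cell type markers without 4sU, all 12 neuronal genes were higher at D6, with a summed level of 12156 to 12893 CPM (reads scaled to the size of the library) against 1012 to 1385 at D0, and the summed level of 8 markers of undifferentiated cells was 3.20 to 20.1 CPM at D6 against 428 to 597 at D0. The 7 glial markers summed to 5.17 to 67.5 CPM at D0 and 37.1 to 76.4 CPM at D6, and 4 of them had no read at D0 and 5 at D6, S100b and Olig2 in both states. The 9 markers of endoderm and mesoderm summed to 101 to 119 CPM at D0 and 9.70 to 19.5 CPM at D6, and 5 of them had no read in either state. In bulk RNA, fewer cells that express a gene and less RNA per cell cannot be told apart.

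The libraries were primed at the poly(A) tail, so that each read comes from the 3′ end of a transcript. On mm10, the intervals that carried the members' reads are those of Mtor at chr4:148556861-148557685, Rptor at chr11:119897483-119899591, Rictor at chr15:6796237-6800401, Mlst8 at chr17:24473550-24475832, Akt1 at chr12:112653821-112654697, Akt2 at chr7:27638142-27639453, Tsc1 at chr2:28687174-28691172, Tsc2 at chr17:24595816-24596604 and Rheb at chr5:24802823-24803663. They range in length from 789 bases for Tsc2 to 4165 for Rictor. T made up 21.5% of the Tsc2 interval and 35.2% of the Rheb interval, which sets how many positions can show a conversion. Rps6kb1 has separate 3′ UTRs at chr11:86499009-86502724, with 62127 reads over all libraries, and at chr11:86513983-86516191, with 3568 reads. The 3′ UTRs of Mlst8 and Tsc2 overlap genes on the opposite strand (Bricd5 and Pkd1). Of the 10 members, 7 hold the poly(A) signal AATAAA in the last 50 bases of the 3′ UTR, searched on the transcribed strand of GENCODE vM21 transcripts of the same assembly, as did 66.5% of 16278 3′ UTRs that could be matched. It was not found for Rheb, Rps6kb1 and Rptor. For Rps6kb1 only the interval with 3568 reads was searched. The transcript used for Rptor ended short of its interval, so that the last bases of that interval were not searched. The sequence of 30 bases around the signal is shown for both genes with more reads at D6 and for both mTORC1 subunits with a signal, with AATAAA in capitals. The end of the Rheb 3′ UTR is shown as an example without it.
Akt1 (chr12:112653821-112653850, minus strand): aaattcAATAAAaattgcttttcaagcttg
Rictor (chr15:6800370-6800399, plus strand): attgttAATAAAatgtacttaaaattctta
Mtor (chr4:148557650-148557679, plus strand): tgtgccAATAAAtgacatcagaattttaaa
Mlst8 (chr17:24473551-24473580, minus strand): gaactatcAATAAAtgtgtatgaaccatca
Rheb (chr5:24802823-24802852, minus strand): gtcatgcctagtaaacagtattttactgca

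Among motifs known from regulated decay, ATTTA was found in 7 of 10 members and TGTANATA in 4 of 10. ATTTA, the core of AU-rich elements, occurred 11 times in the Rictor 3′ UTR, 4 times each in those of Tsc1 and of Rps6kb1 (the interval with fewer reads), 2 times in that of Akt1, once each in those of Mlst8, Rheb and Rptor, and not in those of Mtor, Akt2 and Tsc2. It was present in 58.8% of all matched 3′ UTRs, with a median of 1. The members' 3′ UTRs are longer than the median of 688 bases of all genes, and per 1000 bases ATTTA occurred 1.82 times over all matched 3′ UTRs. Rictor (2.64) and Akt1 (2.28) lay above this rate, and the other members at 0 to 1.81 lay below it. TGTANATA, the sequence bound by Pumilio proteins, was present once each in Rictor, Rheb and Rptor and 2 times in that interval of Rps6kb1, against 19.9% of all matched 3′ UTRs. Over all matched 3′ UTRs it occurred 0.244 times per 1000 bases. The members' rate was not computed, so that 4 of 10 against 19.9% does not account for their greater length. The distal 3′ UTR of Rps6kb1 had no match of the same end and was not searched.

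Without 4sU, the RNAs of Akt1 and Rictor were higher at D6 than at D0, and the other 8 members did not pass the test. Akt1 was at 73.4, 27.5 and 72.7 CPM in the D0 libraries (mean 57.9 ± 26.3, SD, n = 3) and at 244, 115 and 186 CPM in the D6 libraries (181 ± 64.7). Every D6 library was above every D0 library, the same held for Rictor, and it held in this direction for 14.8% of all genes. Rictor was at 43.9, 31.6 and 14.5 CPM at D0 (30 ± 14.8) and at 132, 88.5 and 76.5 CPM at D6 (98.9 ± 29.1). The log2 difference was 1.70 (SE 0.53, adjusted p = 0.0378) for Akt1 and 1.78 (SE 0.56, adjusted p = 0.0394) for Rictor by edgeR's quasi-likelihood test over 11262 genes. Of all genes tested, 12.9% were called, 7.57% higher and 5.29% lower. Both calls lie near the threshold of 0.05. Leaving out library 37, 39, 55, 56 or 57 raised the adjusted p of Akt1 to between 0.0529 and 0.143, and leaving out library 37, 38, 56 or 57 raised that of Rictor to between 0.0677 and 0.149.

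**Figure D1:**
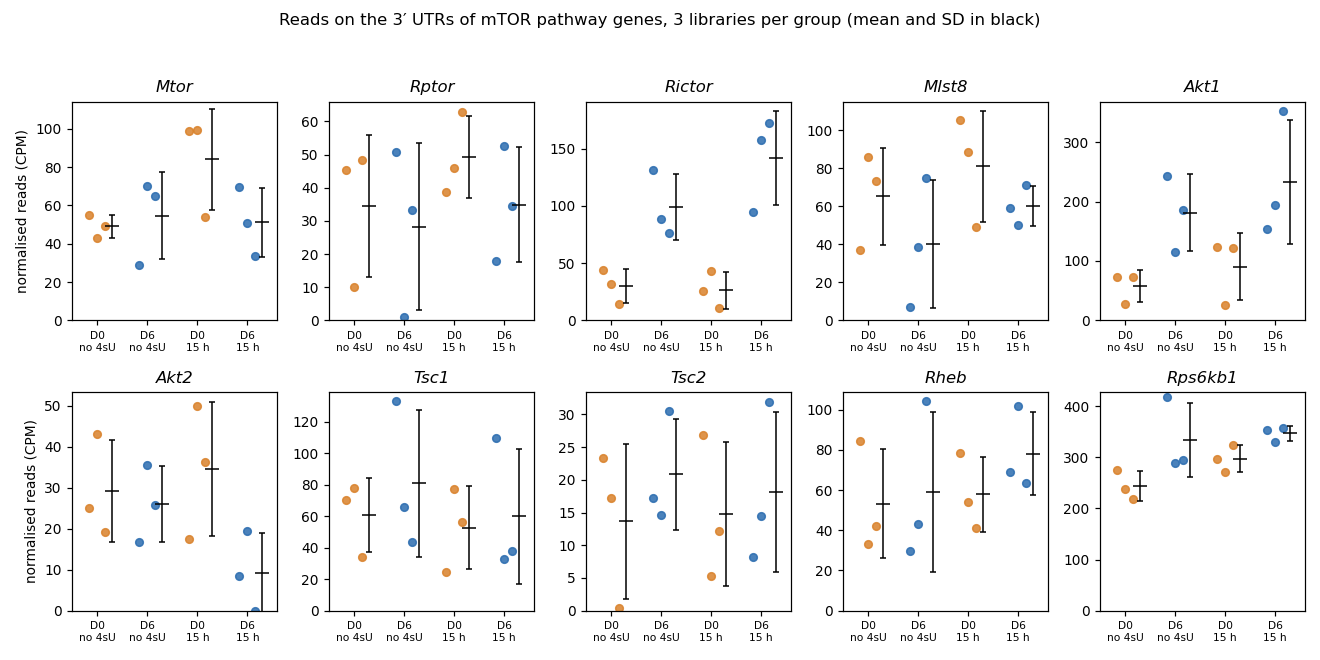
Normalised reads (CPM, y axis from 0) of each member in the D0 (orange) and D6 (blue) libraries without 4sU and after 15 h in 4sU, with the mean and SD of 3 libraries in black. The Akt1 points without 4sU lie between 115 and 244 CPM at D6 and between 27.5 and 73.4 at D0, whereas those of Mtor overlap.

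Mtor itself was at 55.1, 43 and 49.4 CPM at D0 and at 28.6, 70.3 and 64.8 CPM at D6, so that the D6 libraries lay on both sides of the D0 libraries (log2 difference 0.20, SE 0.53). Rptor was at 45.3, 9.90 and 48.4 CPM at D0 and at 50.6, 0.959 and 33.3 CPM at D6, the lowest of which is 3 reads. Mlst8 was at 36.8, 85.9 and 73.3 CPM at D0 and at 7.10, 38.7 and 74.7 CPM at D6. The log2 differences of these mTORC1 subunits were -0.24 (SE 0.93) for Rptor and -0.65 (SE 0.65) for Mlst8, neither larger than its error.

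Among the inputs of mTORC1, Akt2 was at 25.1, 43 and 19.2 CPM at D0 and at 16.8, 35.5 and 25.7 CPM at D6 (log2 difference -0.10, SE 1.12), so that the difference seen for Akt1 was not seen for its paralog, although the difference between the paralogs was not tested. Tsc1 ranged from 33.9 to 77.9 CPM at D0 and from 43.7 to 133 CPM at D6 (log2 difference 0.47, SE 0.62). Tsc2, the least covered member, ranged from 0.462 to 23.4 CPM at D0 and from 14.7 to 30.6 CPM at D6 (0.66, SE 1.28). Rheb ranged from 33.1 to 84.2 CPM at D0 and from 29.8 to 105 CPM at D6 (0.20, SE 0.57). The S6 kinase gene Rps6kb1 had the narrowest error, with 276, 238 and 218 CPM at D0 and 418, 288 and 296 CPM at D6. Its D6 libraries were above all D0 libraries, but its log2 difference of 0.51 (SE 0.25) had an adjusted p of 0.214 in the same edgeR test.

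Every library adds reads, whichever assay it belongs to, and the state was also compared over all 47 libraries within the 8 sets of assay and time point. In every set but that without 4sU, the states also differed in dose, so that state and dose cannot be told apart there. In this edgeR fit 3 members were higher at D6 and none lower, against 49.5% of 12299 genes called and 20.8% called higher. Akt1 was higher by a log2 of 1.05 (SE 0.17, adjusted p = 4.04e-07), Rictor by 1.44 (SE 0.25, adjusted p = 2.48e-06) and Tsc1 by 0.89 (SE 0.31, adjusted p = 0.0137). Not called were Mtor at -0.42 (SE 0.33), Rptor at -0.47 (SE 0.43), Akt2 at -0.62 (SE 0.47) and Mlst8 at -0.15 (SE 0.28). Tsc2 at 0.21 (SE 0.44), Rheb at 0.03 (SE 0.24) and Rps6kb1 at 0.19 (SE 0.11) were not called either. The means of Akt1 and of Rictor were higher at D6 in 8 of 8 sets, as for 12.1% of genes. The D6 libraries of Akt1 lay above all D0 libraries in 6 of 8 sets and those of Rictor in 4, and at least 6 and at least 4 such sets were seen for 6.63% and 12% of genes. Over all libraries Akt1 ranged from 25.2 to 134 CPM at D0 (median 103) and from 104 to 449 CPM at D6 (median 189), and Rictor from 10.6 to 91.7 (median 41.3) and from 9.85 to 312 CPM (median 95.4).

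**Figure D2:**
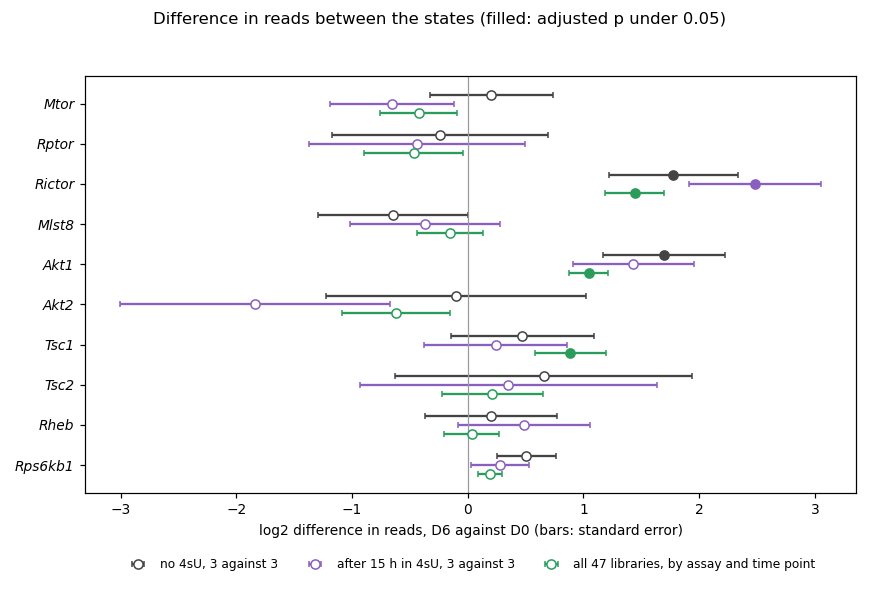
Log2 difference in reads between D6 and D0 (x axis) for each member without 4sU, after 15 h in 4sU and over all 47 libraries, with standard errors as bars and filled points for an adjusted p under 0.05. Akt1 (1.70, 1.43 and 1.05) and Rictor (1.78, 2.48 and 1.44) lie to the right of 0 in each of the comparisons shown, which share libraries.

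Tsc1, whose protein holds TSC2 in the complex, had a higher mean at D6 in 7 of 8 sets. Its D6 libraries lay above the D0 libraries in 2 of 8 sets, at the third time point of the chase (418 and 101 CPM, against 29.5 to 60.1 at D0) and at 9 h (70.8, 112 and 220 CPM, against 39.1 to 49.1). In the other 6 sets they overlapped, and the share of all genes with at least 2 such sets was not computed. Without the 6 libraries in which fewer than 9000 genes had a read, Akt1, Rictor and Tsc1 were again the members called, with log2 differences of 1.14, 1.27 and 0.80 (adjusted p = 0.00125 for Tsc1). Mtor was then at -0.04 (SE 0.17), Mlst8 at -0.14 (SE 0.20), Rheb at -0.12 (SE 0.19) and Rps6kb1 at 0.09 (SE 0.09). Rptor was at -0.04 (SE 0.30) and Akt2 at -0.08 (SE 0.31). The widest error among the 7 members that were not called was that of Tsc2 (0.48, SE 0.38). This fit, in which 53.6% of 12915 genes were called and 23.9% called higher, was chosen after those libraries were seen.

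**Figure D3:**
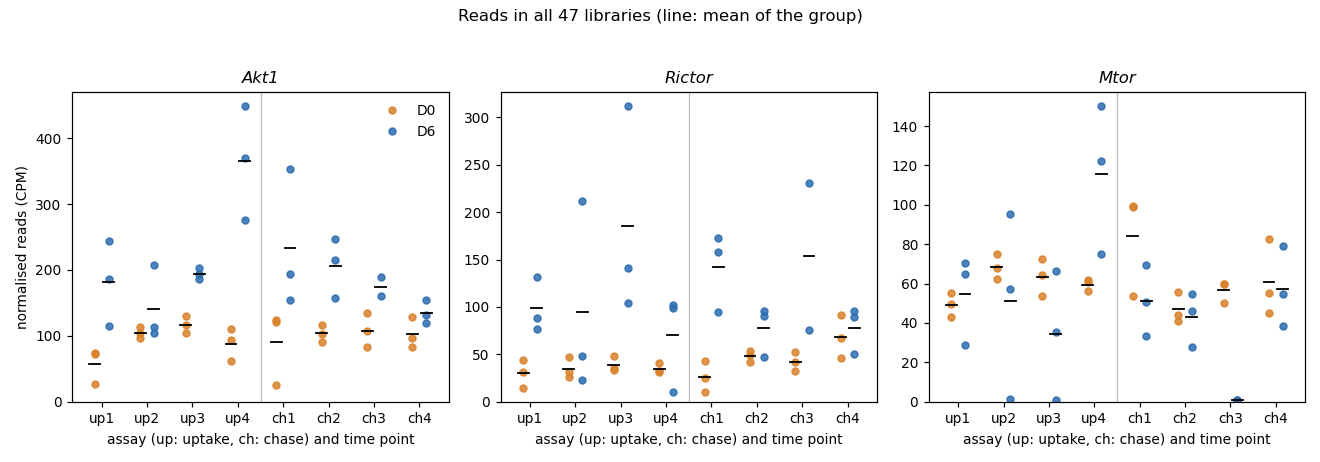
Normalised reads (CPM, y axis from 0) of Akt1, Rictor and Mtor in all 47 libraries by assay and time point, with D0 in orange, D6 in blue and the group means as lines; 1 to 4 are the time points in order. Mtor falls to 0.889 and 1.13 CPM in both D6 libraries of the third chase time point, where Akt1 and Rictor do not.

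The D6 libraries with few genes were uneven among the members. In library 45 of the third uptake time point, Mtor had 3 reads, Rptor 2, Mlst8 3, Akt2 1, Tsc1 2 and Tsc2 0, whereas Akt1 had 548, Rictor 920 and Rps6kb1 1637. In library 14 of the third chase time point, Mtor, Mlst8, Akt2 and Tsc2 had 1 read each and Rptor none, whereas Tsc1 had 470. Of the 23 D6 libraries, 6 had at most 3 reads of Akt2, 5 of Rptor and 4 of Mtor, and none had so few of Akt1, Rictor, Rheb or Rps6kb1. At D0 only Tsc2 fell to 3 reads, in 1 of 24 libraries.

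The pathway around the members was described through 5 lists. Their counts without 4sU stand beside 12.9% of all genes called, 7.57% higher and 5.29% lower. After 15 h in 4sU the share of all genes called was 13.9%, 7.23% higher and 6.64% lower. Among 8 further subunits and assembly factors of mTORC1 and mTORC2, 1 was called, lower at D6 by edgeR. This was Deptor, an inhibitory subunit of both complexes, with 744 reads at D0 (40.2 ± 6.66 CPM, SD, n = 3) and 1 read at D6. After 15 h in 4sU, 0 of these 8 genes were called. Between 15 h and none at D6, Deptor differed by a log2 of 6.23 (SE 1.95, adjusted p = 0.644 by edgeR). Of 14 tested genes of PI3K and insulin/IGF signaling, 4 were higher and none lower. Pik3ca, the catalytic p110α subunit, rose from 56.9 ± 16.2 to 253 ± 73.0 CPM (log2 difference 2.20, SE 0.34, adjusted p = 0.00012) and the IGF1 receptor gene Igf1r from 252 ± 50.3 to 610 ± 119 CPM (1.33, SE 0.25, adjusted p = 0.00103). The regulatory subunit gene Pik3r1 was higher as well (2.48, SE 0.50, adjusted p = 0.00151). The median log2 difference of this list was 0.82, against 0.34 over the 10 members. After 15 h in 4sU, 3 of the 14 genes were higher and 0 lower.

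In the list of Rag GTPases, Ragulator and amino acid sensors, 2 of 27 tested genes were lower and none higher. These were Seh1l, a subunit of GATOR2 and of the nuclear pore (log2 difference -1.77, SE 0.53, adjusted p = 0.0319), and Itfg2, a subunit of KICSTOR (-2.25, SE 0.69, adjusted p = 0.0368). After 15 h in 4sU, 0 of the 27 genes were called. Among 11 genes of energy and stress input, edgeR called 0, and 0 had an unadjusted p under 0.05. Among 17 tested targets and effectors, 2 were higher and 4 lower. Pdcd4, a translation inhibitor degraded downstream of S6 kinase, rose from 14.5 ± 8.66 to 127 ± 50.3 CPM (3.17, SE 0.59, adjusted p = 0.000751), and the autophagy kinase gene Ulk1 rose from 22.1 ± 17.3 to 155 ± 12.2 CPM (2.86, SE 0.74, adjusted p = 0.0121). Eif4ebp1, encoding the translation repressor 4E-BP1, fell from 366 ± 57.3 to 50.9 ± 22.6 CPM (-2.79, SE 0.38, adjusted p = 3.27e-05) and the initiation factor gene Eif4b from 306 ± 112 to 113 ± 22.7 CPM (-1.38, SE 0.31, adjusted p = 0.00468). The others that fell were the adaptor gene Grb10 (446 reads at D0 and 1 at D6) and Larp1, which encodes a binding protein of terminal oligopyrimidine mRNAs (-1.20, SE 0.34). After 15 h in 4sU, 0 of the 11 energy and stress genes were called, and of the 17 targets 2 were higher and 3 lower. Between 15 h and none at D6, Grb10 differed by a log2 of 6.23 (SE 1.88, adjusted p = 0.637 by edgeR).

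After 15 h in 4sU, when the states also differed in dose, Rictor was again higher at D6 and Akt1 did not pass the test. Rictor was at 25.6, 42.7 and 10.6 CPM at D0 and at 95.1, 158 and 172 CPM at D6 (log2 difference 2.48, SE 0.57, adjusted p = 0.00508), again without overlap. It was the 1 member called by edgeR, and of all genes 13.9% were called, 7.23% higher and 6.64% lower. Akt1 was at 124, 25.2 and 122 CPM at D0 and at 155, 195 and 352 CPM at D6, and the groups did not overlap (1.43, SE 0.52, adjusted p = 0.0772). Other analyses of the same reads called it, DESeq2 with an adjusted p of 0.0485 and edgeR without a filter on low counts with 0.00698. The largest opposite value was that of Akt2, at 17.4, 49.8 and 36.2 CPM at D0 and at 8.40, 19.4 and 0 CPM at D6 (-1.84, SE 1.17, adjusted p = 0.346). The subunits of mTORC1 overlapped between the states. Mtor was at 99.1, 99.2 and 53.8 CPM at D0 and at 69.5, 50.7 and 33.5 CPM at D6 (-0.66, SE 0.54). Rptor ranged from 38.7 to 62.9 and from 17.8 to 52.6 CPM (-0.44, SE 0.94), and Mlst8 from 48.9 to 105 and from 50.1 to 71.5 CPM (-0.37, SE 0.65). The regulators of mTORC1 overlapped as well. Tsc1 ranged from 24.8 to 77.2 CPM at D0 and from 32.9 to 109 CPM at D6 (0.24, SE 0.62), Tsc2 from 5.37 to 26.9 and from 8.20 to 31.9 CPM (0.35, SE 1.28) and Rheb from 41.3 to 78.2 and from 63.7 to 102 CPM (0.49, SE 0.57). The libraries of Rps6kb1 did not overlap, at 271 to 324 CPM at D0 and 330 to 358 CPM at D6, but its log2 difference of 0.28 (SE 0.25) did not pass the test. The share of all genes without overlap after 15 h was not computed, so that the lack of overlap of Rictor, Akt1 and Rps6kb1 is a description only.

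No member passed the edgeR test of exposure to 4sU itself. Between 15 h and none, 0 members were called at D0 and 0 at D6, and 0 had an unadjusted p under 0.05 in either state. Of 11262 genes, 4 were called in each state (0.0355%), at D0 0.0178% higher and 0.0178% lower, and DESeq2 called 64 at D0 and 77 at D6. At an unadjusted p under 0.05 there were 452 genes at D0 and 639 at D6. On the log2 scale the values at D0 were 0.78 for Mtor, 0.51 for Rptor, -0.18 for Rictor, 0.32 for Mlst8, 0.64 for Akt1, 0.25 for Akt2, -0.20 for Tsc1, 0.12 for Tsc2, 0.12 for Rheb and 0.29 for Rps6kb1. At D6 they were -0.09 for Mtor, 0.31 for Rptor, 0.52 for Rictor, 0.59 for Mlst8, 0.38 for Akt1, -1.49 for Akt2, -0.43 for Tsc1, -0.19 for Tsc2, 0.41 for Rheb and 0.06 for Rps6kb1. Their standard errors ranged from 0.25 for Rps6kb1 to 1.28 for Tsc2 in both states. The difference between the states in this change was called for 0 members, 0 of them at an unadjusted p under 0.05, and for 0.00888% of genes.

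Label rose during uptake in 7 of 10 members at D0 and in all 10 at D6, where the call of Tsc2 rested on 1 library. Without 4sU, the conversion rate over all genes was 0.143% to 0.208% of covered T positions at D0 and 0.134% to 0.190% at D6, and after 9 h of uptake it was 1.21% to 1.30% and 2.94% to 4.16%. By edgeR on conversions with covered T positions as offset, the members higher after 9 h than without 4sU at D0 were Rptor, Rictor, Mlst8, Akt1, Akt2, Tsc1 and Rps6kb1, as were 62.7% of 9221 genes (0.0542% were lower and 62.8% called in all). At D6 all 10 were higher, as were 70.6% of genes (0.217% were lower and 70.8% called in all), and all 10 were called also without library 53, in which few genes had a read. Mlst8 rose from 0.0159%, 0.0204% and 0.0069% to 1.85%, 1.66% and 1.95% at D0, a 137-fold rise of the pooled rate, and Akt1 from 0.0144%, 0% and 0.0226% to 0.781%, 0.889% and 1.32%, a 57.2-fold rise. At D6, Akt1 reached 4.37%, 5.21% and 2.89%, and Rps6kb1 4.88%, 5.90% and 3.51%. Rictor reached 0.961%, 1.75% and 1.49% at D0 and 4.94%, 0.433% and 2.82% at D6, where the lowest value came from 13 reads of library 53. Tsc1 reached 1.04%, 1.25% and 1.07% at D0 and 2.98%, 0% and 1.40% at D6, with 6 reads in that library, and Rheb reached 2.95%, 2.05% and 6.56% at D6. The lowest D6 values of Rictor and Tsc1 thus came from the library with few genes. Mtor had 0 conversions in 14260 covered T positions without 4sU at D6, which allows a rate of up to 0.0210%, and 2.23%, 3.88% and 3.93% after 9 h, so that its rate was at least 159-fold higher. On the same basis Akt2 was at least 160-fold higher at D6, and Rptor at least 59-fold higher at D0 and at least 45.6-fold higher at D6. Reads carry no molecular identifiers, and these limits cover counting error only.

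**Figure D4:**
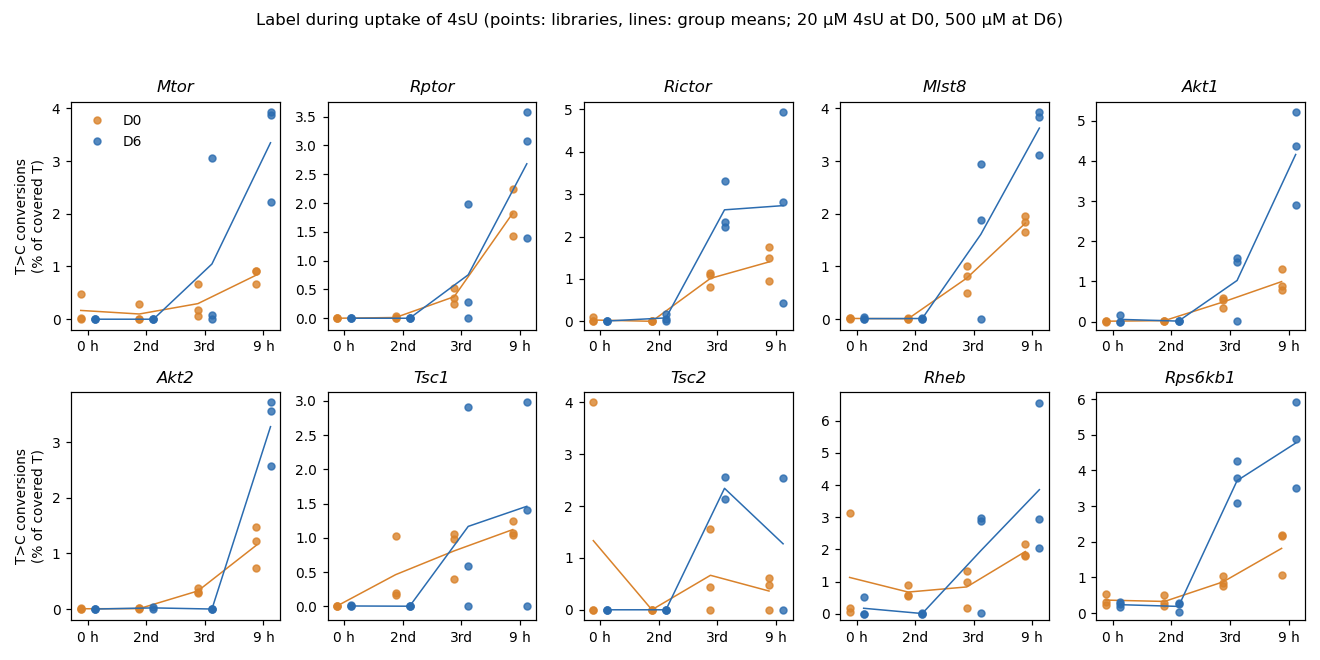
T>C conversions as a percentage of covered T positions (y axis) at the 4 time points of uptake for each member, with libraries as points, D0 (20 µM 4sU) in orange, D6 (500 µM) in blue and lines through the group means. Mlst8 reaches 1.66% to 1.95% at D0 and 3.12% to 3.93% at D6 after 9 h, and Rheb shows 3.13% in 1 D0 library without 4sU.

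The members without a call at D0 were Mtor, Tsc2 and Rheb, each with conversions in a library that received no 4sU. Rheb was at 0.186%, 3.13% and 0.0658% in the D0 libraries without 4sU, and the highest value came from 125 of 154 reads of library 56. Without that library Rheb passed the test at D0 (adjusted p = 0.0429). Mtor was at 0.474%, 0.0257% and 0%, the highest from 31 of 384 reads of library 55, and without that library it passed as well (adjusted p = 0.0484). Tsc2 had 2 conversions among the 3 reads of library 57, and after 9 h its D0 libraries were at 0.470%, 0% and 0.615%. At D6 its call rested on library 54, which held all of its 101 counted conversions after 9 h, and without that library its fitted log2 difference was 0. In library 53 all 46 reads of Tsc2 were counted as carrying a conversion while 0 T positions were counted as covered, so that this library gave no rate. Rps6kb1 carried conversions in all libraries without 4sU, at 0.237% to 0.534% at D0 and 0.156% to 0.295% at D6.

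During the chase, 4 members lost label at D0 and 4 at D6 by edgeR, and these were Mlst8, Akt1, Rheb and Rps6kb1 in both states. Label fell for 30.8% of 9032 genes at D0 and rose for 0.177%, and at D6 it fell for 46.1% and rose for 0.144%, with 46.3% called in all. Mlst8 was at 2.08%, 1.42% and 2.36% at 0 h and at 0.0945%, 0.0403% and 0.0933% at 9 h at D0 (log2 difference -4.65, SE 1.39, adjusted p = 0.0144). At D6 it was at 3.70%, 4.75% and 5.64% at 0 h and had 0 conversions in 14553 covered T positions at 9 h, which allows a rate of up to 0.0206%, so that its label was at least 220-fold lower (adjusted p = 0.000176). The label of Mlst8 thus differed between 0 and 9 h with no overlap in either state.

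Akt1 fell at D0 from 1.08%, 0.371% and 2.31% to 0.118%, 0.0273% and 0.278% (log2 difference -3.16, SE 0.85, adjusted p = 0.00685) and at D6 from 5.38%, 5.36% and 3.69% to 0.802%, 0.780% and 0.359% (-2.89, SE 0.83, adjusted p = 0.00733). Rps6kb1 fell at D0 from 1.45%, 2.38% and 1.06% to 0.541%, 0.393% and 0.364% (-1.91, SE 0.63, adjusted p = 0.0241), and its rate without 4sU was 0.237% to 0.534%, close to that at 9 h. At D6 it fell from 4.41%, 4.47% and 5.09% to 0.272%, 1.30% and 0.0587% (-3.11, SE 0.67, adjusted p = 0.000686). Rheb fell from 1.70%, 1.49% and 2.84% to 0.339%, 0% and 0.435% at D0 (-2.95, SE 1.06, adjusted p = 0.0355) and from 7.78%, 11.4% and 4.72% to 2.06%, 0.1% and 0.163% at D6 (-3.30, SE 1.07, adjusted p = 0.0154). In all of these, as for Mlst8, the libraries at 9 h lay below those at 0 h. The share of all genes without overlap between 0 and 9 h of the chase was not computed. The calls of Akt1 in both states, and of Mlst8 and Rps6kb1 at D6, held with each library left out. At D0, the call of Mlst8 was lost without library 35 (adjusted p = 0.0529), that of Rps6kb1 without library 26, 35 or 36 (0.0747 to 0.0949) and that of Rheb without library 27, 34 or 35 (0.0724 to 0.0857). At D6, the call of Rheb was lost without library 17 or 18 (0.0533 and 0.0584). With reads with a conversion in place of conversions, 3 members were called at D0 and 3 at D6, Rheb being lost in both states (adjusted p = 0.0729 and 0.0633).

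**Figure D5:**
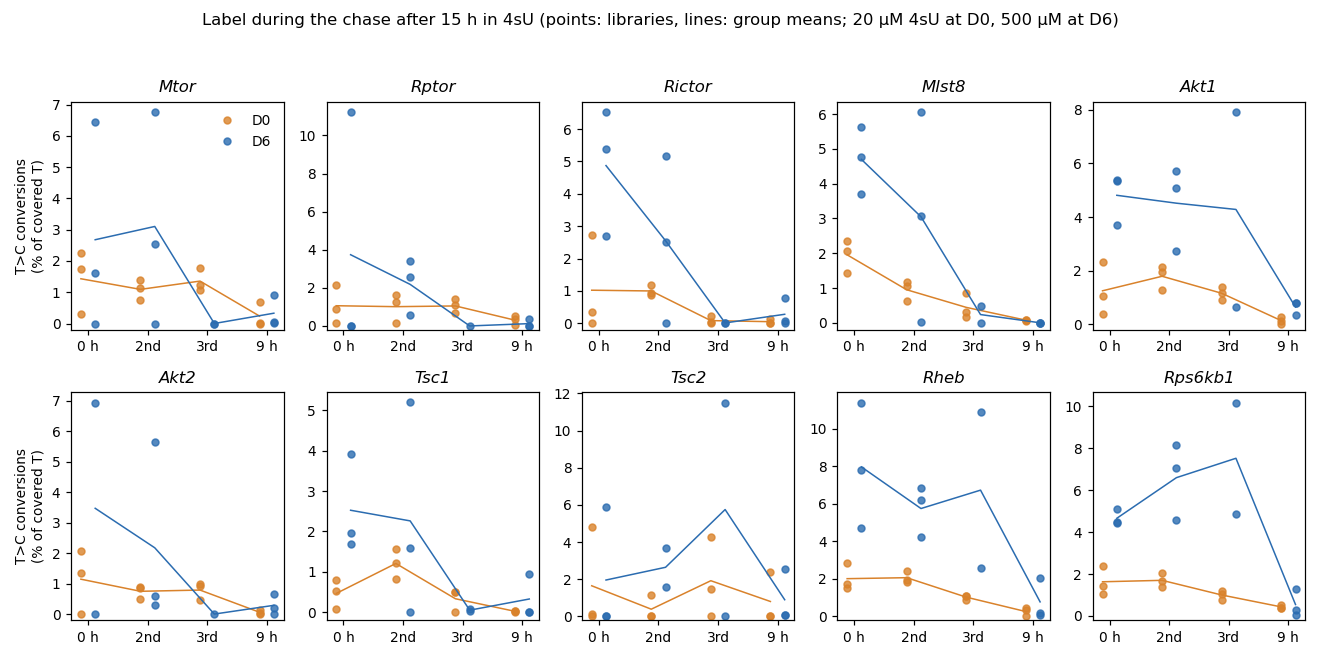
T>C conversions as a percentage of covered T positions (y axis) at the 4 time points of the chase for each member, with libraries as points, D0 (20 µM 4sU) in orange, D6 (500 µM) in blue and lines through the group means. Mlst8 falls from 3.70% to 5.64% at 0 h to 0% at 9 h at D6, whereas libraries of Mtor and Rptor at 0 h are spread from 0% to 6.43% and from 0% to 11.2%.

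The other 6 members had fitted values below 0 in both states but did not pass the test, and their libraries at 0 h were spread widely. Mtor was at 1.73%, 2.26% and 0.295% at 0 h at D0 and at 6.43%, 1.61% and 0% at D6, and at 9 h at 0.0164%, 0% and 0.694% and at 0.923%, 0.0228% and 0.0421%. Rptor was at 11.2%, 0% and 0% at 0 h at D6, from 91, 171 and 107 reads, so that 1 library carried all of its label. At D0 it was at 2.15%, 0.145% and 0.892%, and its log2 difference was -1.79 (SE 1.88). Akt2 was at 0% and 6.95% in the D6 libraries in which it had reads, and at 2.08%, 1.36% and 0% at D0 (-4.21, SE 1.98). Rictor was at 5.39%, 6.52% and 2.70% at 0 h at D6 and at 0.770%, 0% and 0.0631% at 9 h, without overlap, and had a log2 difference of -4.09 (SE 1.79, adjusted p = 0.0597). At D0 it was at 0%, 2.71% and 0.353% at 0 h. Tsc1 was at 3.92%, 1.95% and 1.69% at 0 h and at 0.0120%, 0.952% and 0.00895% at 9 h at D6 (-2.97, SE 1.77, adjusted p = 0.151), and at 0.0712%, 0.790% and 0.527% at 0 h at D0 (-4.48, SE 1.92). Tsc2 was at 0.120%, 0% and 4.83% at 0 h at D0 and at 0%, 0% and 5.88% at D6. The value of 0% in library 7 at D6 rests on 44 covered T positions, which allows a rate of up to 6.82%, while 41 of its 42 reads were counted as carrying a conversion, so that label was seen in 2 of 3 libraries at D6. DESeq2 called Rictor, Akt2 and Tsc1 at D0 and Rptor and Rictor at D6 in addition.

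No member passed the edgeR test of a difference between the states in the label left at 9 h, and 1 had an unadjusted p under 0.05. Over all genes, 0.332% were called, 1195 had an unadjusted p under 0.05 and DESeq2 called 335. The smallest p of a member was that of Mlst8, with an unadjusted p of 0.00777 and an adjusted p of 0.194. Its share of label left, relative to the mean rate at 0 h, was 2.06% to 4.84% at D0 and 0% in all D6 libraries, and it was the only member whose libraries did not overlap, as were 14.9% of 7355 genes in this direction and 3.56% in the other (two-sided exact permutation test, p = 0.1, the smallest that 3 against 3 libraries allow). In library 17 of D6, however, only 1107 T positions were covered, and a count of 0 there allows a share of up to 5.77%, above all D0 values, so that the lack of overlap is not shown for that library. The other D6 libraries allow up to 1.06% and 0.863%. For Akt1 the share left was 11.2% ± 10.1 (SD, n = 3) at D0 and 13.4% ± 5.19 at D6, a log2 difference between the states of 0.26 (SE 1.09), and for Rps6kb1 it was 26.5% ± 5.81 and 11.7% ± 14.3 (-1.19, SE 0.87). The differences between the states were -0.42 for Mtor, -2.81 for Rptor, 0.25 for Rictor, 0.65 for Akt2, 1.51 for Tsc1, -1.83 for Tsc2 and -0.35 for Rheb. Their errors ranged from 0.87 for Rps6kb1 to 3.59 for Tsc2 on the log2 scale. In simulated data with the fitted spread, 0% of genes changed by a log2 of 2 between the states were recovered in this comparison.

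Half-lives could be fitted from 0 and 9 h for 3 members at D0 and 5 at D6, and for Rheb and Rps6kb1 in both states. At D0, the half-life was 115 min for Mlst8, 182 min for Rheb and 282 min for Rps6kb1, and over all genes with a fit, 35.6%, the median was 181 min (quartiles 133 and 259), so that Mlst8 lay below these quartiles and Rps6kb1 above them. Mtor, Rptor, Akt2 and Tsc2 had no fit in either state. At D6, it was 131 min for Rictor, 187 min for Akt1, 182 min for Tsc1, 161 min for Rheb and 174 min for Rps6kb1, and the median of all genes with a fit, 51.6%, was 170 min (quartiles 130 and 222). All 5 values at D6 lay between these quartiles with all libraries, but only that of Akt1 (175 to 207 min) did so whichever library of the chase at 0 or 9 h was left out. Without library 16 of D6 the half-life of Rictor was 74.3 min and that of Rheb 91.3 min, and without library 17 that of Tsc1 was 68.2 min and that of Rps6kb1 112 min. Tsc1 had no fit without library 16 or library 18. At D0, the half-life ranged from 111 to 123 min for Mlst8, from 151 to 227 min for Rheb and from 252 to 352 min for Rps6kb1, the last with values on both sides of the upper quartile. The half-life of Rps6kb1 at D0 was 129 min after subtraction of the rate without 4sU. For Rheb at D0 the mean rate without 4sU (1.13%, with 3.13% in its highest library) was above that at 9 h of the chase (0.258%). After subtraction of that rate, its shares of label left were -128% to -78.6%. Mlst8 at D6 had no label left from which to estimate a half-life.

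Relative to the label after 15 h in 4sU, no member and no gene passed the edgeR test of a difference between the states in label after 9 h of uptake (0% called), with 566 of 9221 genes and 0 members at an unadjusted p under 0.05, and DESeq2 called 26 genes, none a member. The share per library did not overlap for 5 members. It was higher at D6 for Mtor (83.3% to 147% against 46.7% to 64.6%), as for 4.82% of 6763 genes. It was lower at D6 for Rptor (37.1% to 95.8% against 134% to 212%), Mlst8 (66.3% to 83.7% against 84.8% to 99.9%), Tsc1 (0% to 118% against 224.2% to 271%) and Rheb (25.8% to 82.5% against 89.1% to 108%), as for 21.5% of genes. Each of these had p = 0.1 in the exact permutation test, the smallest that 3 against 3 allow. The shares rest on few libraries after 15 h. For Mtor, the rate after 15 h at D6 was 6.43%, 1.61% and 0%, and without the library at 0 (library 9) its share at D6 was 55.5% to 97.8%, which overlapped D0. For Rptor, it was 11.2% in library 7, with 91 reads, and 0% in the other two libraries, so that no share could be formed at D6 without library 7. As reads with a conversion, the share of Rptor was 71.7% to 389% at D6 and 105% to 256% at D0, with overlap and the opposite direction. Of these 5 members, Tsc1 alone had no overlap whichever library was left out. Without library 26 of D0 the other 4 members overlapped, as did Mlst8 without library 9 and Rheb without library 8. Mlst8 and Rheb also overlapped as reads with a conversion, and Rheb after background subtraction. Shares above 100% arise where the mean rate after 15 h was lower than that after 9 h, as for Tsc1 at D0, whose libraries after 15 h were at 0.0712%, 0.790% and 0.527%. Akt1 was at 79.6% ± 22.8 and 86.4% ± 24.4 (SD, n = 3), and Rps6kb1 at 111% ± 39 and 102% ± 25.8, both within their spread. Rictor was at 94.1% to 172% at D0 and 8.89% to 101% at D6, Akt2 at 65.1% to 128% and 73.8% to 107%, and Tsc2 at 0% to 37.3% and, in 2 D6 libraries, 0% and 130%, all with overlap.

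Over the 16 groups of libraries, the genes whose mean log2 levels were most like those of Mtor among 13318 genes were Rptor (r = 0.97), Vat1 (r = 0.97) and Esd (r = 0.96). Mtor and Rptor had 0 to 3 reads each in libraries 14, 15, 40 and 45 and were both at their highest in library 53 (150 and 147 CPM), and the correlation is a description only. Akt2 (r = 0.85), Mlst8 (0.79) and Tsc2 (0.69) were also positively correlated with Mtor, whereas Rictor (-0.59) and Tsc1 (-0.55) were negatively correlated. Rps6kb1 was at -0.22, Akt1 at -0.17 and Rheb at -0.06. The upstream 3′ UTR of Rps6kb1 took 5.07% of its reads at D0 and 6.02% at D6, with 0% to 18.8% and 0% to 16.8% in single libraries. The states overlapped over all libraries together, but not in each set. At 0 h of the chase the share was 11.8%, 11.8% and 11.5% at D6 and 3.65%, 7.47% and 4.97% at D0, whereas at the third time point of the chase it was 0.472% and 0.258% at D6 and 3.83% to 5.16% at D0, so that the direction differed between these sets.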

How the data were processed

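The authors mapped the reads to mm10, masked called polymorphisms and counted conversions over 3′ UTR intervals with slamdunk 0.3.3, per the file headers and the methods. For each interval the deposited files hold counts of reads, covered T positions, conversions and reads with a conversion, which were used. The deposited conversion rate, a fraction, and the deposited CPM were not used; the CPM given here are recomputed. The interval names are RefSeq names, whereas the methods name GENCODE vM17. Of 39419 intervals, those of a gene that overlap were collapsed to the widest and the others summed. Of 28190 mRNA transcripts, 28059 were given a symbol from RefSeq. Multimapped reads counted were 0.

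Reads were tested in R 4.3.3 with edgeR 4.0.16 (quasi-likelihood, TMM, filterByExpr, Benjamini-Hochberg at 0.05) over the 12 libraries without 4sU and at 0 h of the chase, and conversions over 23 chase or 30 uptake libraries with the log of covered T positions as offset, keeping genes whose covered T positions averaged 1000 or more. Standard errors were taken from the test statistic. CPM are scaled by TMM over all 47 libraries. Half-lives are least squares fits to the rate over its mean at 0 h, kept at R squared over 0.6 and up to 5000 min. Levels were not compared between genes. All 10 members are named in each comparison, except for the difference between the states in exposure to 4sU, which is given as counts. In each other list up to 2 called genes per direction with the smallest adjusted p are named, and Pik3r1, Grb10 and Larp1 beyond that; 1 called gene is not reported here. For Mtor the 3 most correlated genes are named. The members and lists were chosen with earlier results of these data known. Alternatives were DESeq2 1.42.0, RLE size factors, no filter, transcripts, limma 3.58.1, reads with a conversion, other time points, background subtraction and leaving out each library. In simulated reads with the fitted spread, a log2 difference of 2 was recovered for 25% of 200 changed genes, and with a low spread for 99%. For the difference between the states in the chase, the shares were 0% and 88%. Python 3.11.15 with numpy, pandas, scipy and matplotlib was used for the rest.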

Additional observations from a re-analysis of the deposited data

How the results depend on the processing

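No paired analysis was possible because each library number occurs once and pairs no samples. For the reads without 4sU, 1 member (Akt1) was called when only the 6 libraries compared were fitted, and over all genes 6082 were called with all 47 libraries and 6921 with those of at least 9000 genes. After 15 h in 4sU, 2 members were called by DESeq2 and 2 without a filter. For exposure to 4sU, genes called numbered 64 by DESeq2 and 46 without a filter at D0, 77 and 16 at D6, and for the difference between the states 42 by DESeq2, 22 without a filter, 0 with RLE size factors and 0 with 1 row per transcript. For the chase, DESeq2 called 7 members at D0, and with reads with a conversion 3 were called at D0 and 3 at D6. For the difference between the states in the chase, genes called numbered 335 by DESeq2, 7 with reads with a conversion, 17 per transcript, and 1 and 88 for slopes over the hours of the design text and the times of the labels. For uptake at D0, 3612 genes were called with at least 5000 covered T positions, and for its difference between the states 26 by DESeq2 and 179 by limma with the background subtracted. Shares per library did not overlap for 2 members in the chase after background subtraction and for 2 in uptake as reads with a conversion. Half-lives in both states were kept for 1 member with all 4 points under either set of times and for 1 after background subtraction. The causes were not tested.

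Leaving out each library in turn, members called ranged from 0 to 1 for reads without 4sU (all genes 1072 to 1259) and stayed at 1 after 15 h (1188 to 1265). They were 0 for exposure at D0 (all genes 1 to 13), at D6 (0 to 5) and for their difference (0 to 6). They ranged from 1 to 5 for the chase at D0 (1666 to 2410), 3 to 6 at D6 (3254 to 3871) and 0 for the difference (7 to 119), from 7 to 8 for uptake at D0 (4363 to 5342), 9 to 10 at D6 (5424 to 6549) and 0 for the difference (0 genes). Half-lives in both states ranged from 2 to 3 members. Leaving out libraries for the shares was chosen after seeing the data. Members whose shares did not overlap then ranged from 1 to 3 in the chase and from 2 to 7 in uptake, and the difference between the states ranged from -3.68 to 14.99 percentage points for Tsc1 and from -1293 to 45.9 points for Tsc2 in the chase. Leaving out 1 library turned the direction for other members too, with overlap in each case. In the chase it was then 24.5 points for Mtor (without library 7), -22.2 for Rictor (26), -6.03 for Akt1 (27), -2.36 for Akt2 (16) and 1.27 for Rheb (36). In uptake without library 27 it was -51.4 points for Akt1, 27.6 for Akt2, -537 for Tsc2 and 7.61 for Rps6kb1. The direction also changed for Rheb in the chase after background subtraction (106 points, from -3.14) and for Rptor in uptake as reads with a conversion (63.2 points, from -100.2), and, with overlap in each case, for Mtor (6.73 points, from -4.26), Tsc2 (213 points, from -2.89) and Rps6kb1 (1.48 points, from -14.8) in the chase after background subtraction and for Akt2 (54.7 points, from -5.84) and Rps6kb1 (1.88 points, from -8.89) in uptake as reads with a conversion. Depth limits the least covered members most, with 1711 covered T positions per library on average for Tsc2 and 3017 for Rptor.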

Other observations

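Reads with a T>C conversion were also present in libraries that received no 4sU. In Rheb they made up 125 of 154 reads of library 56 at D0 (81.2%) and 106 of 663 reads of library 39 at D6 (16%). In Rps6kb1 they made up 3.20% to 9.21% of reads in the 6 libraries without 4sU, in Mtor 31 of 384 reads of library 55 (8.07%) and in Akt1 48 of 1031 reads of library 37 (4.66%).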
